A study of Mus musculus with 8 samples.

Results

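Transcripts of 10 genes known as markers of dental mesenchyme, the connective tissue beneath the tooth epithelium, were followed in RNA from separated molar epithelium of mouse embryos. The genes were fixed by Ensembl identifier, and all 10 were among the 26165 genes of the deposited table. They were Col1a1 (ENSMUSG00000001506), Col1a2 (ENSMUSG00000029661), Col3a1 (ENSMUSG00000026043), Lum (ENSMUSG00000036446), Vim (ENSMUSG00000026728), Pdgfra (ENSMUSG00000029231), Pax9 (ENSMUSG00000001497), Barx1 (ENSMUSG00000021381), Twist1 (ENSMUSG00000035799) and Prrx1 (ENSMUSG00000026586). The symbols are those paired with the identifiers when the set was drawn up. The table itself names no genes, and no annotation used here pairs identifiers with symbols, so this pairing was not checked. Each of the 8 arrays held RNA from the mandibular molars of 5 embryos of one genotype at E13.5, and each genotype had 4 such pools. The knockout (cKO) embryos carried the Cre line K14-cre43, driven by a keratin promoter active in epithelium, with a floxed Foxi3 allele and, by the design text, a null allele on the other chromosome. The control embryos are titled wild type, and their genotype is labelled Foxi3+/floxed. Cre, null allele and deletion therefore cannot be told apart in the comparison. Pools, not embryos, are the replicates, and the spread between them is what the tests measure.

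A tooth germ at this stage is a bud of epithelium surrounded by condensed mesenchyme that derives largely from the neural crest. The tissues exchange signals, and after the bud forms the mesenchyme can direct tooth development. Fibroblasts of the mesenchyme deposit fibrillar collagens and lumican, carry the receptor PDGFRα and express regulators such as Twist1, Prrx1, Pax9 and Barx1. Dispase frees the epithelium by digesting the basement membrane, and mesenchyme genes are read in such RNA as a check of the separation. In pooled RNA, fewer cells of a type and less RNA per cell cannot be told apart. Which cells gave the signal of each gene, mesenchyme left on the epithelium or the epithelium itself, was not tested. Epithelial markers, Foxi3 itself and markers of blood, vessels and nerve were not analysed here, so the labelled tissue was not checked against its own markers.

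The mesenchyme markers called different between the genotypes went in both directions. Barx1 was 1.52-fold higher and Col1a2 1.65-fold lower in the cKO. Pdgfra was also higher, with a measured fold of 1.45 against a wild-type signal that could not be told from background. The other 7 genes were not called different. These 3 of 10 genes compare with 1.31% of all genes called at the same threshold (limma adjusted p under 0.05 over all genes), 0.688% higher and 0.619% lower in the cKO. For the same 3 genes all pools of one genotype lay above all pools of the other, which held for 7.85% of all genes. The count of 3 depended on the arrays used. Of 8 fits that each left out 1 array, 1 (without wild-type replicate 2) called 3 of the genes. Another 2 (without cKO replicate 2 or wild-type replicate 1) called 2, and 5 called 1, Col1a2. The share of all genes called also fell in these fits, to between 0.455% and 1.16%. With the replicate number as a block limma called 0 of the 10 genes (4 at an unadjusted p under 0.05) and 0.0688% of all genes. The share of all genes at that unadjusted p was not computed with the block. Of the differences, 5 were positive and 5 negative, and 42.2% of all genes had a positive difference. Without wild-type replicate 2, an array that stood apart over all genes, 7 were positive and 3 negative. With each array centred on its median they were 8 and 2, where Vim, Col3a1 and Twist1 turned positive at 0.014, 0.0094 and 0.025. The median over all genes was 0.0018 and 0.017 in these fits, for which the share of positive genes was not computed. The median difference was 0.073 on the log2 scale, against −0.018 over all genes, and 0.20 without wild-type replicate 2. The set was drawn up with earlier results of these data known, so these counts describe the 10 genes and are no test of the set.

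**Figure D1:**
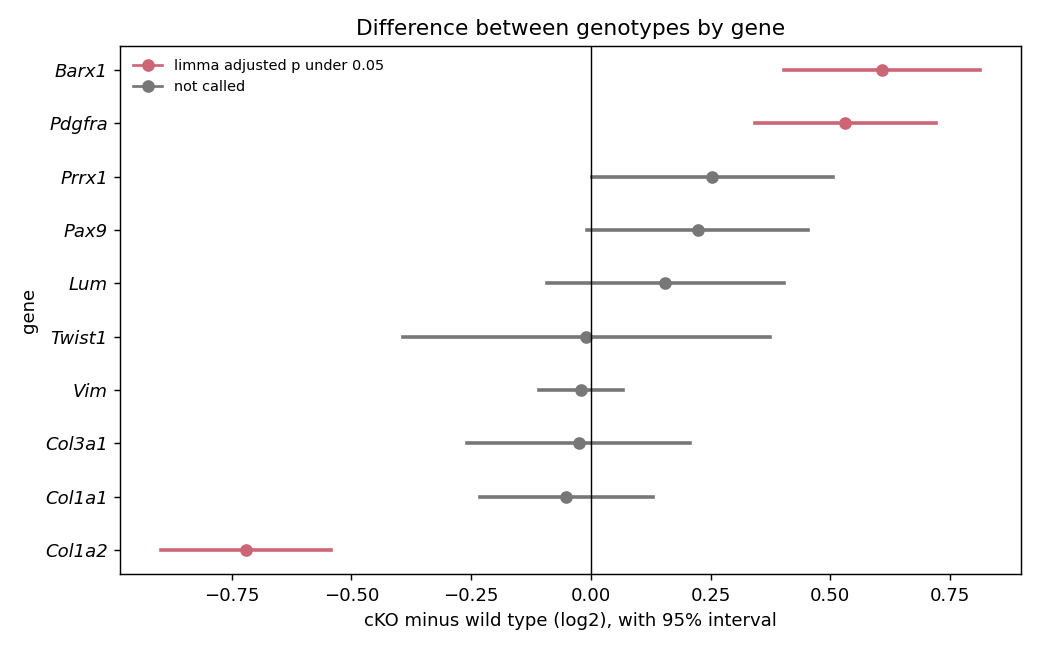
Difference between Foxi3 cKO and wild type for the 10 genes, as log2 cKO minus wild type (horizontal axis) with its 95% interval from limma, 4 pools in each genotype. Barx1 and Pdgfra lie above 0 and Col1a2 below it, and the remaining 7 were not called.

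All 10 genes gave a value on every array, none at 0, but the table carries no detection calls. Brightness can therefore place a gene among the signals of an array and does not rank expression between genes, whose probes differ. Vim, which encodes the intermediate filament protein vimentin, lay above 99.7% of genes on all arrays. Col1a2, Col1a1, Pax9 and Barx1 lay between the 72.3rd and the 86.2nd percentile. Col3a1 was near the middle, from the 49.1st to the 54.6th, and Twist1 between the 36.2nd and 47.1st. Pdgfra, Prrx1 and Lum had mean signals below the 40th percentile of all genes, a log2 value of 4.72. That limit was chosen to mark dim genes. No background was measured, so these dim signals could not be told from background. Twist1 had a mean of 4.76, just above the limit, and its percentile was below 40 on some arrays. The mean log2 value over the 10 genes was between 6.20 and 6.34 on the cKO arrays and between 6.06 and 6.35 on the wild-type arrays. The overlap rested on wild-type replicate 2, the highest at 6.35: the other wild-type arrays reached 6.15, below the lowest cKO array. That array was set aside after the values were seen, and the separation was not tested or counted over all genes. Without it, 7 of the 10 differences were positive, the largest 0.63 for Barx1 and 0.60 for Pdgfra. The other 3 were negative, with −0.72 for Col1a2, so the mean does not describe a rise of all 10 genes.

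**Figure D2:**
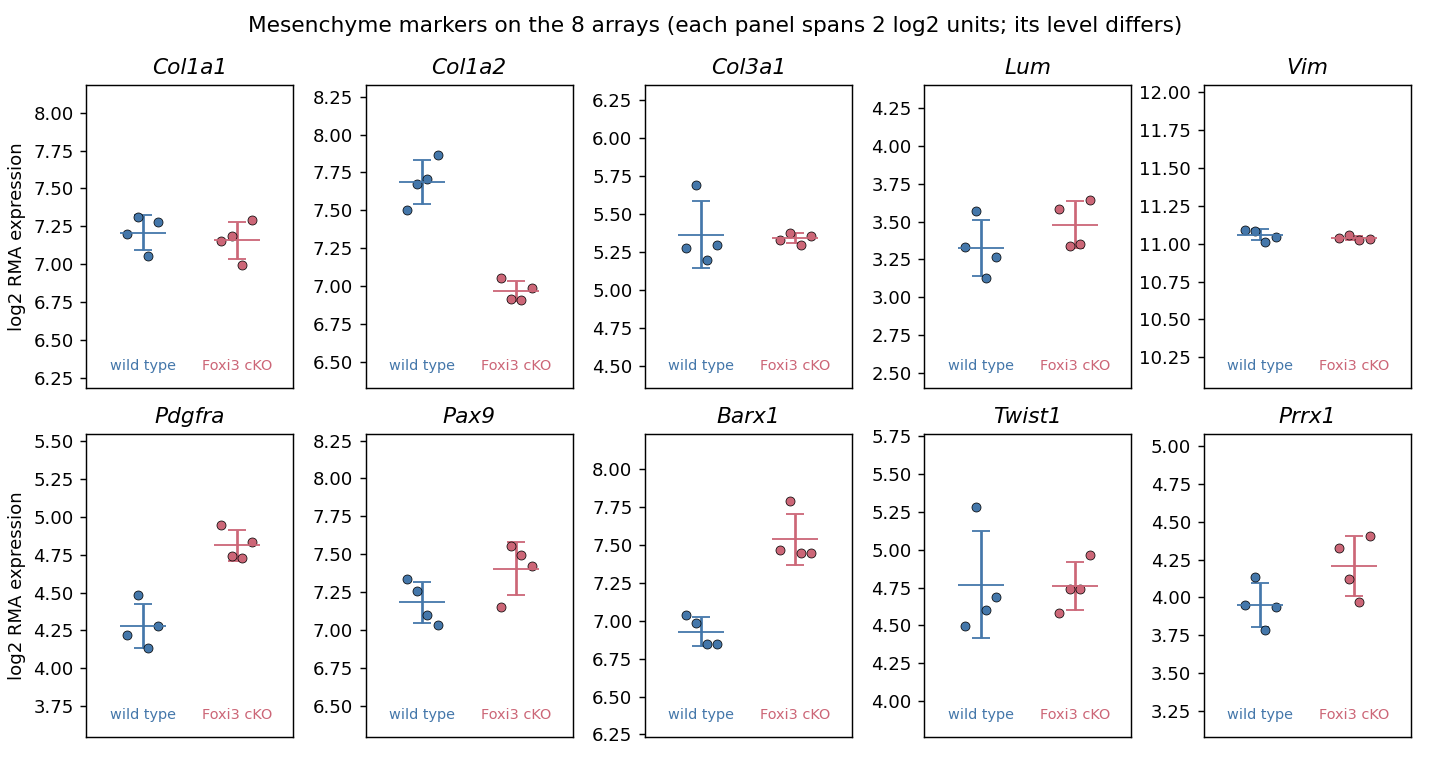
Log2 RMA expression of each gene (vertical axis) by genotype, 1 point per array in the order of replicates 1 to 4, with the mean and SD of the 4 pools. The genotypes do not overlap for Col1a2, Pdgfra and Barx1, and they overlap for the other 7 genes.

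Upstream windows are shown for the 3 genes called different between the genotypes in the fit with genotype alone. The windows, each from 250 bases before to 50 bases after the annotated start, were taken from RefSeq (GRCm38.p6), which held one for 8 of the 10 genes. Capitals mark CCAAT, the sequence bound by the factor NF-Y, on either strand (ATTGG on the other).
Col1a2, chr6:4505368-4505667, + strand: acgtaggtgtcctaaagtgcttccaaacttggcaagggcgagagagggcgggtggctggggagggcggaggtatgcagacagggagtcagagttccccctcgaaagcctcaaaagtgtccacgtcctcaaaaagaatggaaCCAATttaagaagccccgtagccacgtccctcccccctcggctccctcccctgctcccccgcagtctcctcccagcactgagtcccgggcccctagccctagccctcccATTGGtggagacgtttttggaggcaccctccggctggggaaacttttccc
Pdgfra, chr5:75152001-75152300, + strand: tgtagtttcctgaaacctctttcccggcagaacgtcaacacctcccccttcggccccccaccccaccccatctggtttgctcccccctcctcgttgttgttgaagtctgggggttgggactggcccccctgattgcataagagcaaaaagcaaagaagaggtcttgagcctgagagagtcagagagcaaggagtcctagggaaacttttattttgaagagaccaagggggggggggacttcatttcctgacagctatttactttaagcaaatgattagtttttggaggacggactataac
Barx1, chr13:48662786-48663085, + strand: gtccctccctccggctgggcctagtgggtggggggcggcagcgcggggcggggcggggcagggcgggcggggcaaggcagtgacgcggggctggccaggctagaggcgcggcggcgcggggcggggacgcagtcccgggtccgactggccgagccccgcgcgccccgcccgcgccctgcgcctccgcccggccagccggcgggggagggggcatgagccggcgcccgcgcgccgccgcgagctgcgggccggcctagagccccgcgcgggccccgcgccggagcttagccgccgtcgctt
CCAAT occurred in the Col1a2 window, at 2 places, in neither of the other windows shown, and in 37.4% of all 32851 windows of this length. Among the 8 windows of the set, CCAAT occurred in 3, also in those of Vim and Twist1, which were not called. A core of the forkhead motif, TGTTTA or its reverse complement TAAACA, was in none of the windows shown and in 13.4% of all windows. Among the 8 windows of the set, it occurred in 1, that of Col3a1. These are matches of letters and say nothing about binding.

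The fibrillar collagens form the bulk of the mesenchymal matrix, and Col1a1 and Col1a2 encode the chains that join in type I collagen. Col1a2 measured 7.05, 6.91, 6.91 and 6.99 in cKO replicates 1 to 4 and 7.50, 7.68, 7.71 and 7.86 in wild-type replicates 1 to 4 (log2 values). Every cKO pool was below every wild-type pool, a separation seen in 3.71% of all genes. The means were 6.97 ± 0.07 (SD, n = 4) and 7.69 ± 0.15 (SD, n = 4), a difference of −0.72 (95% interval −0.90 to −0.54, limma adjusted p = 0.00588). Of all genes, 63 differed by at least this much in either direction and its p ranked 48 from the smallest.

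Col1a1 measured 7.16, 7.19, 7.00 and 7.29 in the cKO pools and 7.20, 7.31, 7.05 and 7.28 in the wild-type pools. The genotypes overlapped throughout, and the difference was −0.05 (95% interval −0.23 to 0.13, limma adjusted p = 0.873). The gap between the chains, Col1a2 minus Col1a1 on the log2 scale, was chosen for description after their values were seen and was not tested. It lay between −0.30 and −0.09 on the cKO arrays and between 0.30 and 0.66 on the wild-type arrays. The cKO pools averaged −0.19 ± 0.11 (SD, n = 4). The wild-type pools averaged 0.48 ± 0.17 (SD, n = 4). The levels of the chains relative to each other within an array cannot be read from these values, since different probes measured them.

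**Figure D3:**
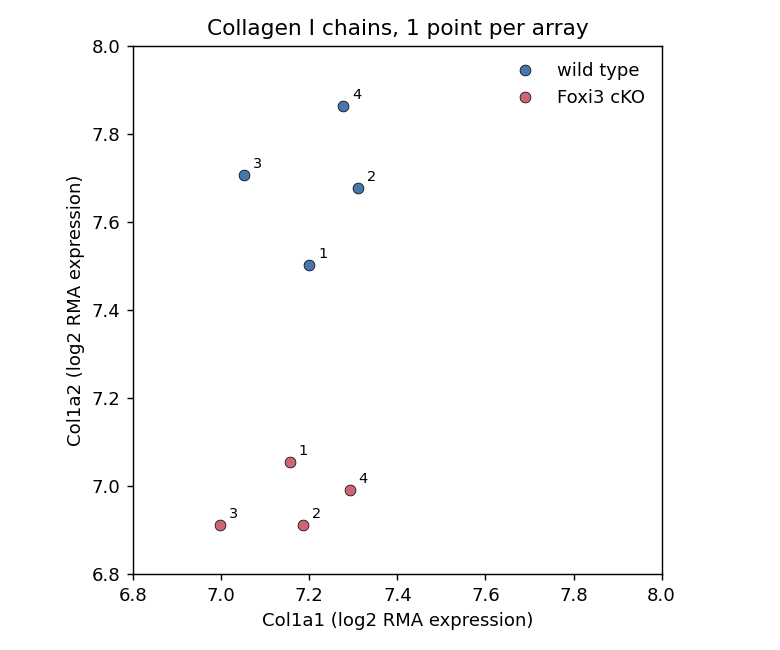
Log2 RMA expression of Col1a2 (vertical axis) against Col1a1 (horizontal axis), 1 point per array labelled by its replicate number. The genotypes overlap along Col1a1, with cKO arrays from 7.00 to 7.29 and wild-type arrays from 7.05 to 7.31, and are separated along Col1a2.

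Col3a1, which encodes the chain of type III collagen, a companion of type I in loose connective tissue, measured 5.30 to 5.37 in the cKO and 5.20 to 5.69 in wild type. Its highest value was that of wild-type replicate 2, and the other wild-type pools reached 5.30. The difference was −0.03 (95% interval −0.26 to 0.21, limma adjusted p = 0.953), and 0.08 without that array. Lum encodes lumican, a small proteoglycan that binds collagen fibrils. It was the dimmest of the 10 genes, with 3.34 to 3.64 in the cKO and 3.13 to 3.57 in wild type. Its difference of 0.16 was not called (95% interval −0.09 to 0.40, limma adjusted p = 0.736).

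Pdgfra encodes the receptor PDGFRα, a surface marker of fibroblasts and of neural crest-derived mesenchyme. It measured 4.95, 4.74, 4.73 and 4.83 in cKO replicates 1 to 4 and 4.22, 4.48, 4.14 and 4.28 in wild-type replicates 1 to 4. All cKO pools were above all wild-type pools, as in 4.14% of all genes. The difference was 0.53 (95% interval 0.34 to 0.72, limma adjusted p = 0.0247). Its signal lay between the 30.2nd and 32.5th percentile of genes on the wild-type arrays, below the 40th, and between the 40.5th and 44.0th on the cKO arrays, just above it. The call ended when any 1 array other than wild-type replicate 2 was left out (limma adjusted p = 0.060 to 0.086, differences 0.48 to 0.56). Vim varied least, from 11.02 to 11.05 in the cKO and from 11.01 to 11.09 in wild type. Its difference was −0.02 (95% interval −0.11 to 0.07, limma adjusted p = 0.897), and its SD within genotypes, 0.027, was at the 1.71 percentile of all genes.

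Of the transcription factors, Barx1 was called and Pax9, Prrx1 and Twist1 were not. Barx1, a homeobox gene of the molar field of the jaw mesenchyme, measured 7.47, 7.79, 7.45 and 7.44 in cKO replicates 1 to 4 and 7.04, 6.98, 6.85 and 6.85 in wild-type replicates 1 to 4. Every cKO pool exceeded every wild-type pool, and cKO replicate 2 stood above the other cKO pools. The difference was 0.61 (95% interval 0.40 to 0.81, limma adjusted p = 0.0192), and 0.52 without cKO replicate 2 (limma adjusted p = 0.0242). The call was lost on leaving out cKO replicate 1, 3 or 4 or wild-type replicate 3 or 4 (limma adjusted p = 0.051 to 0.072, differences 0.58 to 0.64).

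Pax9, a paired-box gene required for tooth development beyond the bud, measured 7.15, 7.55, 7.49 and 7.42 in the cKO and 7.33, 7.25, 7.10 and 7.04 in wild type. The cKO pools other than replicate 1 were above all wild-type pools. The difference of 0.22 did not pass the test (95% interval −0.01 to 0.45, limma adjusted p = 0.534). Prrx1, a homeobox gene of limb and craniofacial mesenchyme, measured 4.33, 4.12, 3.97 and 4.41 in the cKO and 3.95, 4.14, 3.78 and 3.94 in wild type. The groups overlapped, and the difference of 0.25 was not called (95% interval 0.0022 to 0.51, unadjusted p = 0.0484 and adjusted p = 0.511 by limma). Over all genes, 9.67% had an unadjusted p under 0.05. Twist1 encodes a basic helix-loop-helix factor of cranial neural crest mesenchyme. It measured 4.59, 4.74, 4.74 and 4.97 in the cKO and 4.49, 5.28, 4.60 and 4.69 in wild type. Wild-type replicate 2 was the highest of all arrays, the genotypes overlapped, and the difference of −0.01 was the smallest in size among the 10 genes (95% interval −0.39 to 0.37, limma adjusted p = 0.991). Without that array it was 0.16 (limma adjusted p = 0.604).

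Within a genotype, arrays differed in the level of most of the 10 genes at once. In the wild type, replicate 2 was above the genotype mean for 9 of 10 genes, the exception being Col1a2, and replicate 3 was above it for 1, again Col1a2. Averaged over the 10 genes, these arrays deviated from the wild-type mean by 0.17 and −0.12 on the log2 scale. That mean includes replicate 2, which raised it. The mean level of the 10 genes was 6.06 in replicate 3, against 6.14 and 6.15 in replicates 1 and 4. In the cKO, replicate 4 was above the mean for 8 genes and replicate 3 for 1, with average deviations of 0.068 and −0.074. Medians over the 10 genes were 0.14 and −0.15 for wild-type replicates 2 and 3 and 0.022 and −0.068 for cKO replicates 4 and 3. The median deviation over all genes was 0.041 for wild-type replicate 2 and between −0.016 and 0.006 for the other 7 arrays.

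**Figure D4:**
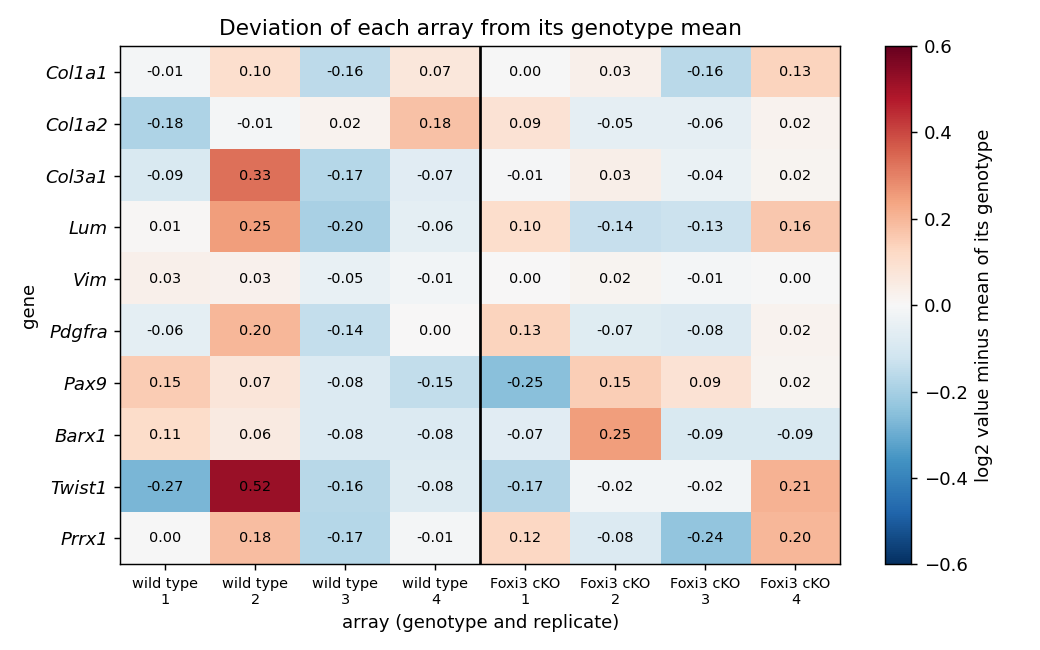
Log2 value of each gene (rows) on each array (columns) minus the mean of its genotype, in colour and as a number. Wild-type replicate 2 is raised for 9 of the 10 genes, most for Twist1 at 0.52, while cKO replicate 3 and wild-type replicate 3 are low for 9 each.

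Wild-type replicate 2 also stood apart over all genes, with a median log2 value of 5.44 against 5.25 to 5.30 on the other arrays. Set against the average of wild-type replicates 1, 3 and 4, its median gene differed by 0.158 in both the dimmest and the middle tertile of signal and by −0.062 in the brightest. Of the members, Twist1, Col3a1, Lum, Pdgfra and Prrx1 are in those lower tertiles and were higher on it by 0.69, 0.44, 0.33, 0.27 and 0.25. The 5 bright members, Col1a1, Pax9, Barx1, Vim and Col1a2, differed from the other wild-type arrays by −0.01 to 0.13. The part of this brightness trend in the values of the members was not tested. The calls for Col1a2, Pdgfra and Barx1 were present without the array (differences −0.72, 0.60 and 0.63, limma adjusted p = 0.0178, 0.0138 and 0.0387).

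The SD within genotypes had a median of 0.148 over the 10 genes and 0.108 over all genes, and 9 of the 10 were above the middle of all genes. Twist1, at 0.273, was the most variable and lay at the 92.2nd percentile of genes. Its SD was 0.157 in the cKO and 0.353 in wild type, where replicate 2 lay 0.52 above the mean. These percentiles were not recomputed without that array. The profile of average deviations was most like that of ENSMUSG00000091318 and ENSMUSG00000064308, which are not named here, both with a Pearson r of 0.989 over the 8 arrays. These points share wild-type replicate 2, and the r was 0.972 and 0.977 over the 7 arrays without it. Such likeness was common, with 690 genes above an r of 0.9, and is given as a description.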

How the data were processed

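Biotin-labelled total RNA (WT Terminal Labeling Kit) was measured on 8 arrays, 4 pools per genotype. The authors' deposited table holds log2 values, 1 row per Ensembl gene identifier; the submitters' processing notes name RMA as the method. No version of it, array model or genome build is named in the sources used. This method equalises probe distributions between arrays and narrows large or dim differences. Array medians of the deposited gene values still differed, from 5.25 to 5.44. All 8 columns were used and matched by sample accession.

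The deposited values, with no further scaling or filter, were fitted by limma (version 3.58.1, R version 4.3.3) with genotype as the single term and the standard eBayes prior, over all 26165 genes, two-sided, with Benjamini-Hochberg adjustment over all of them and a threshold of 0.05. Differences are cKO minus wild type. The step was tested on simulated data with independent noise in each gene. Those data held no shift shared across an array, such as that of wild-type replicate 2. The 10 members and all lists were chosen with earlier results of these data known, and all 10 are named. The genes most like the members were the 2 with the highest correlation of deviations from genotype means. The fixed lists of further mesenchyme, epithelial and other cell type genes are not analysed here, because no table used pairs their symbols with the identifiers. Alternatives were a replicate block, leaving out each array, array weights, other scalings, a filter on dim genes, another prior and another threshold. Nothing states that the pools came from separate litters, so p-values reflect only how far these pools vary. Precision is set by the number of arrays.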

Additional observations from a re-analysis of the deposited data

Results flagged for a closer look

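Each of the 10 genes, the array median and the average deviation of the 10 genes were checked in both genotypes for an array far outside its group (24 checks). Chance alone marks about 1 in 20. In 2 of them an array stood apart. Barx1 measured 7.79 in cKO replicate 2, against 7.44 to 7.47 in the other cKO pools. The median over all genes was 5.44 on wild-type replicate 2, against 5.25 to 5.28 on the other wild-type arrays. No cause of either was tested.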

How the results depend on the processing

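The called differences kept their sign under every alternative run, 16 each for Col1a2 and Barx1 and 15 for Pdgfra, which the filter on dim genes removed. The replicate block, the filter, the other prior and the threshold of 0.1 cannot change a difference in this design. The sign is therefore checked only by the remaining alternatives. Col1a2 ranged from −0.78 to −0.66 and lost its call only with the replicate number as a block. That block left the differences at −0.72 for Col1a2, 0.61 for Barx1 and 0.53 for Pdgfra but ended all 3 calls (limma adjusted p = 0.079, 0.087 and 0.147), giving 0 members higher and 0 lower, while 4 had an unadjusted p under 0.05, and 18 calls over all genes. No label states that equal numbers mark paired pools, same-numbered pools did not deviate together (correlations −0.090 to 0.020), and 1 of 4 cKO arrays was closest to the wild-type array of its number. Leaving out 1 array gave differences of 0.52 to 0.64 for Barx1 and 0.48 to 0.60 for Pdgfra, 0 to 2 members called higher by limma (3 to 5 with an unadjusted p under 0.05), 1 lower, a median of the members of 0.027 to 0.20, and 119 to 303 calls over all genes. The share of all genes at that unadjusted p was not computed for the block or for these fits. The median was 0.16 with array weights, 0.22 without the 3 collagen genes and −0.021 without the dimmest 40% of genes, where 7 members were tested and 1 was called higher. All genes gave 575 calls with array weights and 196 with each array centred on its median. Centring, repeated quantile normalization, cyclic loess, array weights and the trend and robust prior left the 3 calls in place. A threshold of 0.1 on the same fit could only keep them, so it is no check of these calls. Of the genes not called, Pax9, Prrx1 and Lum were positive under every alternative, with the same limit on what checks the sign. The sign of Col1a1, Col3a1, Twist1 and Vim depended on the setting. No alternative called any of these 7. No cause was tested for these shifts. Leaving out an array changed the number and the identity of the samples together. Without detection calls, dim signals of Lum, Prrx1 and Pdgfra could not be told from background. The alternatives for the further lists were not run.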
